A study of Mus musculus with 27 samples.

Results

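The trophoblast genes described here are 9 genes, Cdx2, Gata3, Tfap2c, Hand1, Ascl2, Elf5, Krt7, Krt8 and Krt18, taken by gene symbol from the 27080 genes listed in at least 1 of the 3 RNA-seq count tables of the study. The symbols were chosen for what the genes are known to do, and the rule uses no measured value, although earlier results of these data were known when they were chosen. All samples were J1 mouse embryonic stem cells (mESCs) or embryoid bodies (EBs) made from them. The mESCs were grown without feeder cells on gelatin in serum with leukemia inhibitory factor (LIF), and no trophoblast tissue or placenta was measured. The study asked what happens to gene expression when Gas41, the H2A.Z-associated YEATS-domain protein encoded by Yeats4, is depleted, and how that relates to ordinary differentiation.

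The 12 libraries form 5 groups. 3 libraries came from cells infected with a lentiviral control shRNA (shCon), 3 from cells with the Gas41 shRNA shGas41-1 and 2 from cells with a second hairpin, shGas41-2, all selected with puromycin and harvested 8 days after infection. The other 4 came from cells with the control vector, 2 kept undifferentiated in LIF (EB day 0) and 2 grown without LIF as EBs, floating aggregates in which mESCs differentiate, for 6 days (EB day 6). Every group therefore carried a vector, and no uninfected cells were compared. The study describes its experiments in general as biologically repeated, and the labels do not say which libraries came from separate cultures. The tests measure the spread between these libraries, which may in part be technical.

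The trophectoderm is the outer epithelium of the blastocyst, the first tissue set apart from the cells that give rise to the embryo and to mESCs, and it makes the trophoblast of the placenta. Tead4, activated where Hippo signaling is low, and Gata3 and Tfap2c act upstream of or beside Cdx2, which holds the trophectoderm apart from the inner cell mass. Elf5 and Eomes then keep trophoblast stem cells, Ascl2 and Hand1 act in their differentiating descendants, and the simple-epithelial keratins Krt7, Krt8 and Krt18 build the cytoskeleton. mESCs rarely enter this lineage. Cdx2, Gata3 and Hand1 are also used later in the embryo proper, Cdx2 in the posterior body axis and Hand1 in mesoderm, and Krt8 and Krt18 in most simple epithelia.

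The hairpins were aimed at the sequences below, shown because both knockdown groups rest on them. Each was read from the list of oligos in the supplement and found once in the Yeats4 exons of mm9, the build of the files, with the gene on the minus strand of chromosome 10. shGas41-1 lies at chr10:116652513-116652533 in exon 7 of 7, outside the coding sequence, and shGas41-2 at chr10:116659320-116659340 in exon 2, within it.
shGas41-1: GTAGCATTCCACGACGTTAAG
shGas41-2: ATCGTTAAGCCAATCGTTTAT

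The promoters of 4 of the genes are shown because Cdx2 and Gata3 were the members called in knockdown cells and Krt8 and Krt18 are the neighbouring keratin partners that moved together in EBs. Each sequence is the 250 bases before the gene start in RefSeq (GRCm38.p6, not the mm9 of the counts), 5′ to 3′ along the gene. Capitals mark matches, on either strand, to 3 short motifs: GCCNNNGGC, a form bound by AP-2 factors such as Tfap2c, GATAA, bound by GATA factors such as Gata3, and TTTATG, bound by Cdx2 and its relatives. Entries were found for 7 of the 9 genes, all but Tfap2c and Hand1.
Cdx2 (chr5:147307250-147307499, minus strand): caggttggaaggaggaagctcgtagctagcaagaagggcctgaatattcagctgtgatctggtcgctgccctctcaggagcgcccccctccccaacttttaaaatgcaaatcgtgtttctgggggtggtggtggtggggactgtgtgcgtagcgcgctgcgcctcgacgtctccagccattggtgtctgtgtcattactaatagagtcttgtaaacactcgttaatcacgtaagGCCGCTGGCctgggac
Gata3 (chr2:9878601-9878850, minus strand): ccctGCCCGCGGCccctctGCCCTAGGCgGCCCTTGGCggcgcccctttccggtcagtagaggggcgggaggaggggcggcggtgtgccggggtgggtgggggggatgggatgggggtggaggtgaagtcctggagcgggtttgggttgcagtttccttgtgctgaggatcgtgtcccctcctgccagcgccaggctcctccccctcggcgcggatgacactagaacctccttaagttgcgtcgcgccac
Krt8 (chr15:102004343-102004592, minus strand): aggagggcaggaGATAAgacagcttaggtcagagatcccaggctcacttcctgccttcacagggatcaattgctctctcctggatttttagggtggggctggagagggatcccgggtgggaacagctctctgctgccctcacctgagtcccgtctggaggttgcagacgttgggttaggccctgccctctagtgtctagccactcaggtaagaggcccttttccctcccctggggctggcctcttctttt
Krt18 (chr15:102027966-102028215, plus strand): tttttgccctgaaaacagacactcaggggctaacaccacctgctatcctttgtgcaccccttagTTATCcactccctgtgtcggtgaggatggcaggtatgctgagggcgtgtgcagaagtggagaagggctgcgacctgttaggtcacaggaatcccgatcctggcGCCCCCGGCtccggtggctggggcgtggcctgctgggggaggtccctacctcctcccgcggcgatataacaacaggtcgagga
The Gata3 promoter held 3 matches to GCCNNNGGC, at -246, -231 and -221 from the start, Cdx2 held 1 at -16 and Krt18 held 1 at -83. Of 32817 mouse promoters of this length, 13.7% held at least 1. GATAA was found once before Krt8 and once before Krt18, against 22.6% of all promoters, and TTTATG in none of the 4, against 10.8%. No marked matches overlap. A match is a run of letters, and binding was not measured here. The promoters also differed in CpG content, with 19 CpGs before Gata3, 13 before Cdx2, 12 before Krt18 and 3 before Krt8.

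The libraries held 59224537 to 81524773 counts, so that 3 counts, taken as the least amount that can be told from nothing, were 0.0368 to 0.0507 CPM (counts per 1000000 counts of the library). Levels below are plain CPM, and fold changes are from edgeR's quasi-likelihood test with Benjamini-Hochberg adjustment (FDR) over all genes tested. A gene was called where it changed at least 2-fold at an FDR of 0.05 or less, the thresholds of the study. The 3 shGas41-1 libraries were the least alike, with replicate 3 apart from the other 2. For the members tested, values without it are given where the side of the FDR or 2-fold limit changed. For genes outside the members they are not given. Yeats4 itself was at 63.2, 54.5 and 52.1 CPM in shCon, 3.5, 4.42 and 4.79 in shGas41-1 and 8.68 and 7.67 in shGas41-2, or 7.93% and 15.3% of the control in the fit. It was 43.6 and 45.8 CPM in EB day 0 and 46.1 and 50.2 in EB day 6.

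Among the trophoblast genes, Gata3 rose under both hairpins, and Cdx2 passed the thresholds under shGas41-1 alone. No member was called lower in any comparison. In shGas41-1 cells 2 of the 8 members tested were called higher, against 7.9% of all 18274 genes tested called higher and 2.4% called lower, and without shGas41-1 replicate 3 the count was 3, with Ascl2 added. In shGas41-2 cells 1 of 9 was called higher, against 3.96% of 18405 genes higher and 0.869% lower. In day 6 EBs 6 of the 8 tested were called higher, namely Cdx2, Hand1, Krt7, Krt18, Gata3 and Krt8, against 16.6% of 18287 genes higher and 14.7% lower. The median log2 fold change of the members tested was 0.54, 0.93 and 3.02 in these 3 comparisons, where the median of all genes tested was 0.02, -0.01 and 0.00. The shGas41-2 median is over 9 members and the others are over 8. The added gene was Elf5, which passed the filter on low counts in that comparison alone of the 3. The values 0.54 and 0.93 are therefore not over the same genes.

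**Figure D1:**
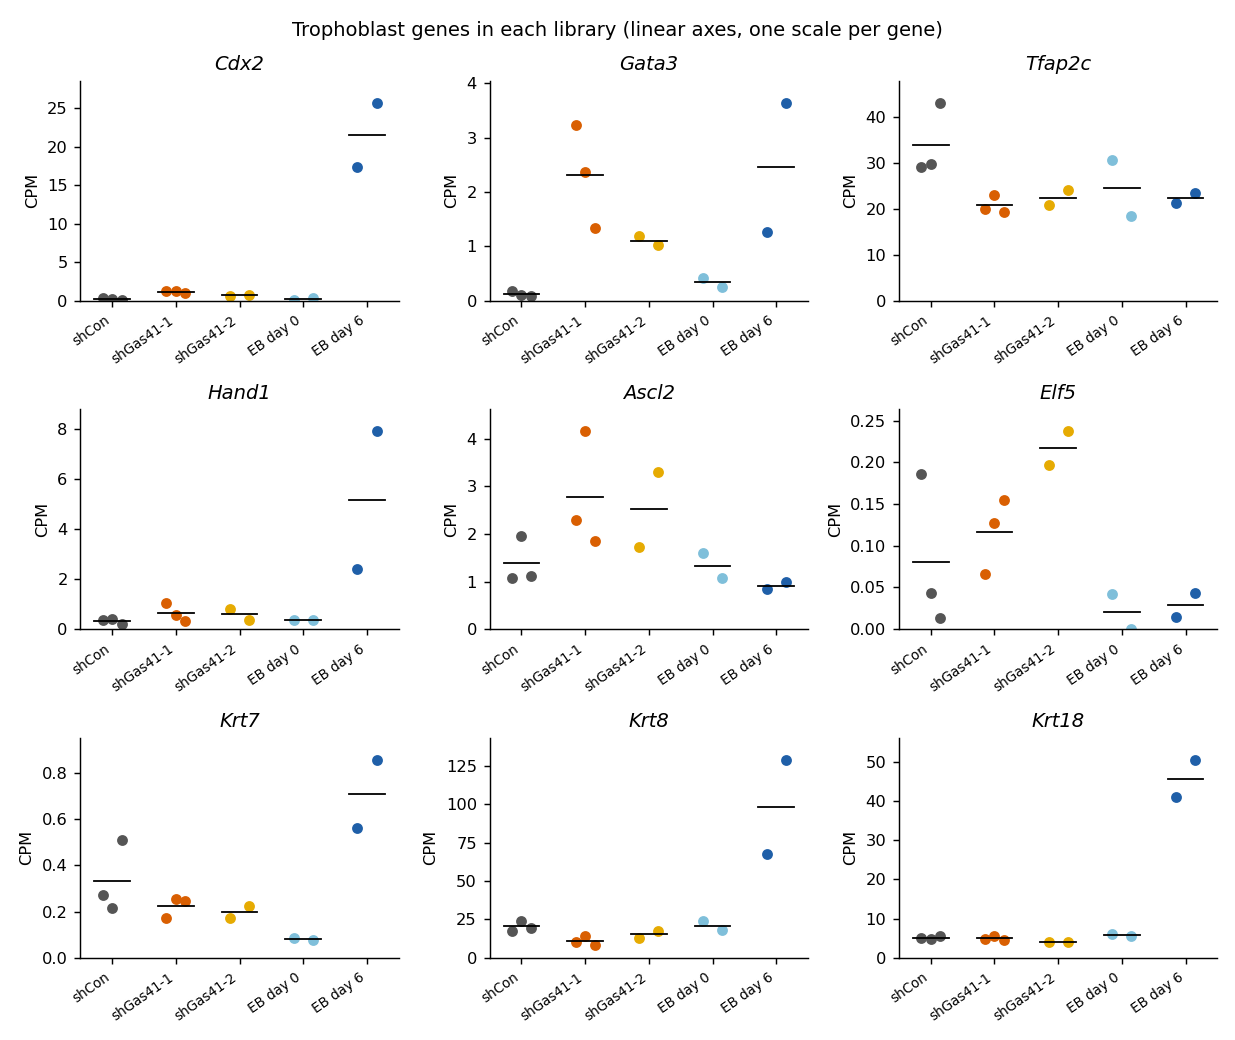
Each panel shows 1 trophoblast gene, with the 5 groups on the horizontal axis and CPM on a linear vertical axis that starts at 0 and has its own scale. Points are libraries and lines are group means. Cdx2, Hand1, Krt8 and Krt18 stand far above all other groups in EB day 6, Gata3 is raised in both knockdown groups and in EB day 6, and Elf5 stays below 0.25 CPM throughout.

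Gata3, a zinc-finger factor of the trophectoderm (mm9 chr2:9778705-9811661, minus strand), was at 0.186, 0.101 and 0.0829 CPM in shCon, from 11, 7 and 6 counts. It was at 3.23, 2.36 and 1.33 CPM in shGas41-1 and at 1.19 and 1.02 CPM in shGas41-2. All 5 knockdown libraries lay above all 3 controls. The log2 fold change was 4.30 ± 0.43 (SE; 95% interval 3.33 to 5.27; 19.7-fold; FDR = 0.0021, edgeR) for shGas41-1 and 3.26 ± 0.37 (2.40 to 4.12; 9.57-fold; FDR = 0.00279, edgeR) for shGas41-2. By p-value it stood at rank 38 of 18274 genes and rank 169 of 18405. In the EB series Gata3 was at 0.420 and 0.251 CPM at day 0 and 1.27 and 3.64 CPM at day 6, a log2 fold change of 2.94 ± 0.58 (FDR = 0.00533, edgeR).

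Gata3 levels in shGas41-1 cells, which were still in LIF, overlapped those of day 6 EBs. A test between them was not part of the design. Its exons share 155 bases with Gm13256 on the opposite strand and 77 bases with 9230102O04Rik, and the library kit does not mark strand. Both of those genes had at most 1 count in any library that lists them.

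Cdx2, the homeodomain factor that opposes the inner-cell-mass program in the trophectoderm (chr5:148112381-148118846, minus strand), was near the floor in control cells. shCon libraries had 0.355, 0.245 and 0.06905 CPM, or 21, 17 and 5 counts. The shGas41-1 libraries had 1.29, 1.21 and 1.05 CPM and the shGas41-2 libraries 0.662 and 0.774 CPM. Both knockdown groups lay wholly above shCon, with 68 to 97 counts in shGas41-1. The log2 fold change was 2.50 ± 0.45 (1.49 to 3.52; 5.68-fold; FDR = 0.00776, edgeR) for shGas41-1, and 1.79 ± 0.52 (0.58 to 3.00; FDR = 0.0681, edgeR) for shGas41-2, which missed the threshold. Without shCon replicate 1, the control with the most Cdx2, the shGas41-2 difference was 2.27 and passed (FDR = 0.00741, edgeR), while the other 4 fits with 1 library left out gave 1.35 to 1.91 with FDR values of 0.0604 to 0.28 and did not.

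In EBs Cdx2 showed the widest change of the 8 members tested. It went from 0.0981 and 0.345 CPM at day 0 to 17.4 and 25.7 CPM at day 6, a log2 fold change of 6.71 ± 0.45 (5.64 to 7.79; 105-fold; FDR = 5.92e-05, edgeR). Mean Cdx2 was 1.18 CPM in shGas41-1 cells and 21.5 CPM in day 6 EBs. The order of the group means was EB day 6, shGas41-1, shGas41-2, shCon and EB day 0. The last 2 of these overlapped, and the others were each separate from the next.

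Tfap2c, an AP-2 factor shared by trophectoderm, germ cells and naive mESCs (chr2:172375093-172384122, plus strand), was already high in control cells. It had 29.1, 29.8 and 43.1 CPM in shCon, 20.0, 23.1 and 19.2 CPM in shGas41-1, 20.8 and 24.1 CPM in shGas41-2, 30.7 and 18.5 CPM at EB day 0 and 21.3 and 23.5 CPM at day 6. All knockdown libraries lay below all shCon libraries. The EB day 0 library at 18.5 CPM, also undifferentiated, lay below every knockdown library, and EB day 0 differed from shCon by -0.48 (FDR = 0.248, edgeR). The log2 fold change was -0.63 ± 0.17 (FDR = 0.0373, edgeR) for shGas41-1, past the FDR limit but under 2-fold, and -0.52 ± 0.19 (FDR = 0.122, edgeR) for shGas41-2. Without shGas41-1 replicate 3 the first FDR was 0.0516 at the same fold change. Between day 0 and day 6 the difference was -0.05 with an interval from -0.59 to 0.49 (FDR = 0.868, edgeR). Per kb of exon, the scale on which genes can be compared, Tfap2c had 9.24 ± 2.14 CPM (SD, n = 3) in shCon against 0.0986 ± 0.0637 for Cdx2 and 0.0310 ± 0.0138 for Gata3.

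Hand1, a basic helix-loop-helix factor of trophoblast giant cells and of lateral mesoderm (chr11:57642207-57646320, minus strand), was at 0.371, 0.418 and 0.193 CPM in shCon. It was at 1.04, 0.562 and 0.340 CPM in shGas41-1 and 0.810 and 0.374 CPM in shGas41-2, so both knockdown groups overlapped the controls. The log2 fold changes of 1.05 ± 0.45 (FDR = 0.136, edgeR) and 0.93 ± 0.46 (FDR = 0.226, edgeR) missed the threshold. At day 6 of EB culture Hand1 had 2.40 and 7.91 CPM against 0.364 and 0.377 CPM at day 0. That was a log2 fold change of 3.88 ± 0.62 (2.40 to 5.37; 14.8-fold; FDR = 0.00213, edgeR).

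Ascl2, the imprinted helix-loop-helix factor of the spongiotrophoblast (chr7:150152727-150155169, minus strand), gave 1.08, 1.96 and 1.119 CPM in shCon, 2.29, 4.15 and 1.85 CPM in shGas41-1 and 1.73 and 3.29 CPM in shGas41-2. The groups overlapped because shCon replicate 2 lay above the lowest knockdown libraries. Log2 fold changes were 1.06 ± 0.35 (FDR = 0.0674, edgeR) and 0.94 ± 0.36 (FDR = 0.138, edgeR). Without shGas41-1 replicate 3 the first was 1.24 and passed (FDR = 0.0405, edgeR), and it did not pass without any other library, falling to 0.68 without shGas41-1 replicate 2. The second was 0.38 without shGas41-2 replicate 2. In EBs Ascl2 had 1.60 and 1.07 CPM at day 0 and 0.843 and 0.989 CPM at day 6, a difference of -0.46 (FDR = 0.26, edgeR), so among these genes it was the one with lower values at day 6 than in either day 0 library and no call.

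Elf5, an ETS factor known for a promoter that is methylated in mESCs and open in trophoblast stem cells (chr2:103251845-103291146, plus strand), stayed below 0.25 CPM in every library. The counts were 11, 3 and 1 in shCon, 5, 10 and 10 in shGas41-1, 16 and 19 in shGas41-2, 3 and 0 at EB day 0 and 1 and 3 at EB day 6. It passed the filter on low counts against shCon only with shGas41-2, where its difference was 1.56 ± 0.78 with an interval from -0.24 to 3.36 (FDR = 0.235, edgeR) although both shGas41-2 libraries lay above all controls. Without shCon replicate 1, the control with 11 counts, this difference was 2.95 and passed (FDR = 0.0154, edgeR). Other fits with 1 library left out gave 1.04 to 1.69. Between the hairpins, the other comparison in which Elf5 was tested, the difference was -0.89 (FDR = 0.888, edgeR). Both EB groups had mean levels under the CPM of 3 counts, and a change was not detectable at this depth.

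The keratins divided the groups in another way. Krt8 and Krt18, type II and type I chains that pair into one filament, are 23.9 kb apart on chromosome 15 with no gene annotated wholly between them, and Krt7 lies 566.4 kb away with 17 keratin genes between it and Krt8. In day 6 EBs all 3 rose, while none was called in knockdown cells.

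Krt8 (chr15:101827142-101834773, minus strand) was at 17.6, 24.04 and 19.4 CPM in shCon, 10.2, 13.8 and 8.204 CPM in shGas41-1 and 12.9 and 17.4 CPM in shGas41-2. Every shGas41-1 library lay below every control. The log2 fold change was -0.85 ± 0.20 (FDR = 0.0215, edgeR), or 55.4% of control, which passed the FDR limit and not the 2-fold limit, and that for shGas41-2 was -0.34 ± 0.18 (FDR = 0.267, edgeR). Without shGas41-1 replicate 2 the former was -1.05 and was called. In EBs Krt8 went from 23.8 and 18.01 CPM to 67.6 and 129 CPM, a log2 fold change of 2.32 ± 0.31 (5-fold; FDR = 0.00102, edgeR).

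The Krt8 values carry an uncertainty of their own. Of its exon bases in mm9, 82.9% were found again at 98% identity or more at chr7:24142113-24143830, inside the annotated gene Nlrp4e. How reads that match both places were counted is not given in the sources used here, so the Krt8 level is uncertain. Nlrp4e had 0 to 23 counts in a library. Whether the copy lies in Nlrp4e exons was not checked, so these counts do not show how many reads fell on it.

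Krt18 (chr15:101858647-101862457, plus strand), with no such copy at that identity, was at 5.10, 4.75 and 5.40 CPM in shCon, 4.64, 5.61 and 4.54 CPM in shGas41-1 and 3.99 and 3.88 CPM in shGas41-2. The log2 fold changes were 0.04 (interval -0.33 to 0.40; FDR = 0.896, edgeR) and -0.29 (interval -0.63 to 0.05; FDR = 0.24, edgeR), so both intervals lay inside 2-fold either way. In EBs Krt18 rose from 5.97 and 5.43 CPM to 41.0 and 50.6 CPM. Its log2 fold change of 3.09 ± 0.14 (8.53-fold; FDR = 1.74e-05, edgeR) had the smallest error among the called members.

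Krt7 (chr15:101241474-101260744, plus strand) was low in every group. shCon had 0.270, 0.216 and 0.511 CPM, shGas41-1 0.173, 0.255 and 0.247 CPM and shGas41-2 0.172 and 0.225 CPM. The differences of -0.49 (FDR = 0.437, edgeR) and -0.67 (FDR = 0.406, edgeR) missed the threshold. It rose from 0.0841 and 0.0785 CPM at day 0, from 6 and 5 counts, to 0.562 and 0.858 CPM at day 6. That was a log2 fold change of 3.18 ± 0.50 (9.09-fold; FDR = 0.00196, edgeR), and both day 6 libraries also lay above the highest shCon library at 0.511 CPM.

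Because Krt8 and Krt18 chains pair, their levels were also set against each other per kb of exon. The Krt8 to Krt18 ratio was 2.68, 3.93 and 2.78 in shCon, 1.70, 1.91 and 1.40 in shGas41-1, 2.51 and 3.48 in shGas41-2, 3.09 and 2.57 at EB day 0 and 1.28 and 1.98 at day 6. The shGas41-1 ratios lay below all shCon ratios (log2 difference -0.90; 2-sided exact permutation p = 0.1, the smallest that 3 against 3 allows; adjusted over 3 comparisons 0.3). The day 6 ratios lay below both day 0 ratios (log2 difference -0.83; exact permutation p = 0.333, again the smallest possible), and those of shGas41-2 overlapped shCon (log2 difference -0.06; exact permutation p = 0.9). None of these can reach 0.05 in this design, and all of them rest on Krt8 counts that have the copy described above.

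**Figure D2:**
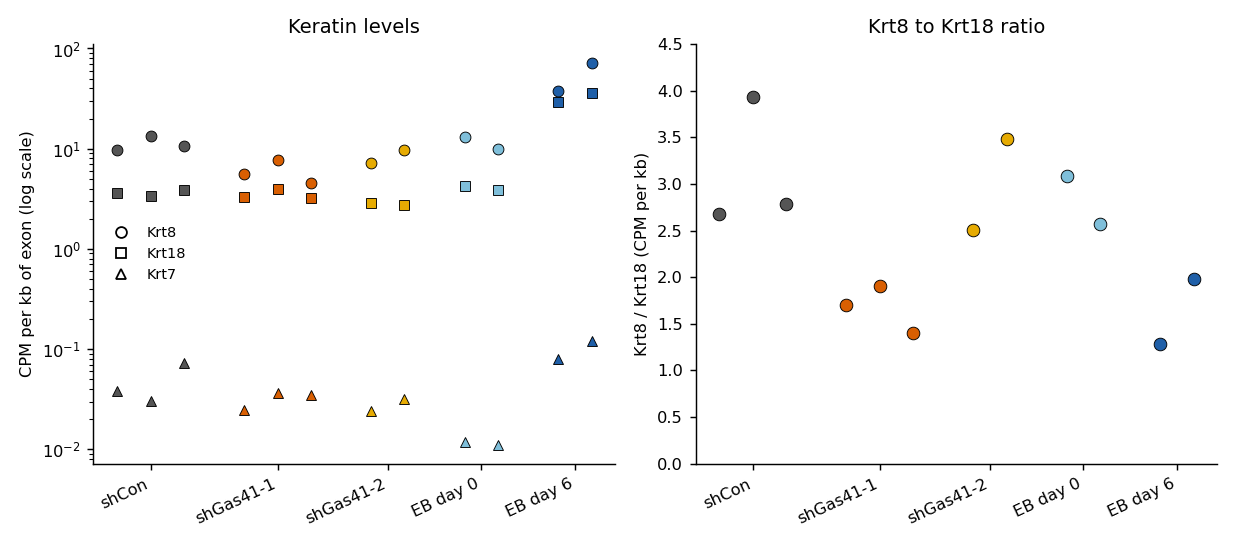
Left, levels of Krt8 (circles), Krt18 (squares) and Krt7 (triangles) in each library as CPM per kb of exon on a log axis; right, the Krt8 to Krt18 ratio per library on a linear axis from 0. Colours are the 5 groups. Ratios in shGas41-1 (1.40 to 1.91) and EB day 6 (1.28 to 1.98) sit below those of shCon (2.68 to 3.93), whereas the levels themselves rise only in EB day 6.

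**Figure D3:**
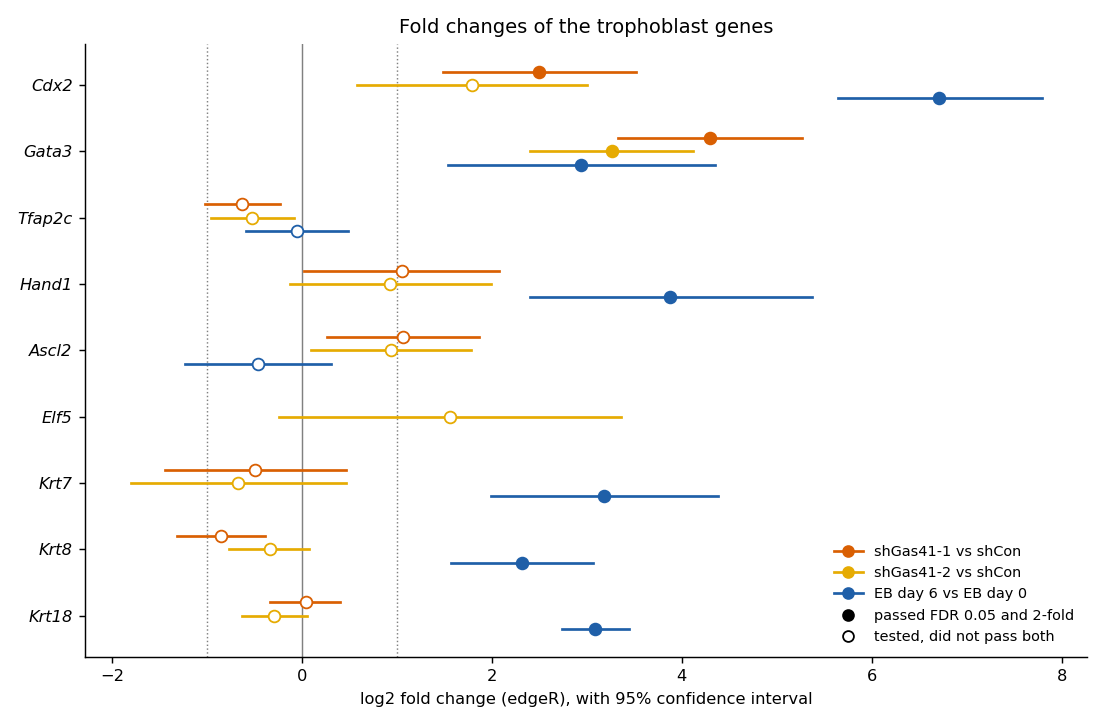
Log2 fold changes of the 9 genes with 95% confidence intervals (edgeR) for both hairpins against shCon and for EB day 6 against day 0. Filled points passed an FDR of 0.05 and 2-fold, open points did not, and dotted lines mark 2-fold. Gata3 is filled in all 3 comparisons, Cdx2 in 2, and Hand1 and the 3 keratins in EBs; of these 3, Elf5 was tested for shGas41-2 alone.

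The hairpins were compared with each other, since a gene past the threshold under one and not under the other is not shown to differ. No gene of the 19146 tested was called (0%), with 1348 at an unadjusted p under 0.05 and 69 called by DESeq2. For Cdx2 the shGas41-1 to shGas41-2 difference was 0.72 on the log2 scale with an interval from -0.21 to 1.65 (FDR = 0.809, edgeR). For Gata3 it was 1.05 with an interval from 0.26 to 1.84 (FDR = 0.566, edgeR), and all 3 shGas41-1 libraries lay above both shGas41-2 libraries. Yeats4 was lower in shGas41-1, at 52.1% of shGas41-2 (FDR = 0.198, edgeR). Krt8 differed by -0.51 (FDR = 0.71, edgeR), and the remaining members had an FDR of 0.758 or more.

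Undifferentiated cells of the EB series served as a second control. Against shCon, 0.569% of 18095 genes were called in either direction and none of the 8 members tested was. The widest differences were those of Krt7, at -2.02 (interval -3.34 to -0.70; FDR = 0.0906, edgeR), and of Gata3, at 1.45 (interval 0.29 to 2.62; FDR = 0.135, edgeR), and for both genes the groups did not overlap. Gata3 levels at EB day 0, 0.251 and 0.420 CPM, were nevertheless below the lowest knockdown library at 1.02 CPM.

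The regulators around these genes moved in both directions in shGas41-1 cells. The counts for this and the later lists stand against the shares of all genes tested. These were 7.9% called higher and 2.4% lower under shGas41-1, 3.96% and 0.869% under shGas41-2, and 16.6% and 14.7% in day 6 EBs. Of 13 regulators of trophoblast stem cells and trophectoderm tested, members included, 5 were called higher, Gata3, Id2, Cdx2, Fgfr2 and Sox21, and 3 lower, Tead4, Esrrb and Eomes, with a list median of -0.21. Sox21 and Id2 also differed between the 2 control groups, where EB day 0 was above shCon by 1.57 (FDR = 0.0272, edgeR) and 1.09 (FDR = 0.0419, edgeR), the former wider than the Sox21 change of 1.44 under shGas41-1. Id2, an inhibitor of helix-loop-helix factors, went from 5.56, 7.12 and 4.36 CPM in shCon to 54.2, 46.9 and 53.8 CPM (log2 fold change 3.26). Fgfr2, the FGF receptor of the trophectoderm, rose from 0.829 to 0.880 CPM to 2.80 to 6.33 CPM. Tead4, the factor upstream of Cdx2, went the other way, from 9.66, 14.5 and 20.3 CPM to 4.56, 6.45 and 3.94 CPM (log2 fold change -1.50, FDR = 0.00924, edgeR). Eomes, needed for trophoblast stem cells and for the primitive streak, fell from 6.70 to 11.6 CPM to 2.70 to 5.25 CPM (0.5-fold, FDR = 0.0343, edgeR).

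In shGas41-2 cells 3 of 14 regulators were called higher, Gata3, Id2 and Fgfr2, and none lower, with a median of -0.07. Id2 reached 19.7 and 23.0 CPM there (log2 fold change 1.99). Tead4 at 5.64 and 7.55 CPM (log2 fold change -1.09, FDR = 0.0591, edgeR) and Eomes at 5.91 and 4.90 CPM (-0.67, FDR = 0.107, edgeR) missed the threshold.

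Genes of differentiated trophoblast were only partly measured. Of the 18 on the list 10 were tested. No counts are listed under the symbols Tpbpa, Plet1, Prl3d1, Prl3b1 and Ctsq, so these could not be tested. Plac1, Prl2c2 and Pparg had at most 6, 2 and 14 counts in any library that lists them and were not tested. Under shGas41-1 4 were called higher, Gcm1, Synb, Rhox9 and Rhox6, and 1 lower, with a median of 1.07. Gcm1, the factor that starts syncytiotrophoblast formation, went from 0.118 to 0.180 CPM in shCon to 0.511 to 1.34 CPM (log2 fold change 2.57), and was at 0.349 and 0.552 CPM in shGas41-2 (1.72, FDR = 0.0388, edgeR). Synb, a syncytin derived from a retroviral envelope, went from 29.2 to 47.2 CPM to 110 to 166 CPM (1.83) and to 118 and 141 CPM with shGas41-2 (1.78). Rhox9, a placental homeobox gene, rose from 0.303 to 0.692 CPM to 0.825 to 1.57 CPM with shGas41-1 (1.53, FDR = 0.0292, edgeR). Gcm1 and Synb were the 2 of 10 called under shGas41-2, with a median of 0.62.

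In day 6 EBs the same lists split. Of the 13 regulators 4 were higher, Cdx2, Eomes, Gata3 and Fgfr2, and 4 lower, Esrrb, Klf5, Sox21 and Tead4, with a median of 0.29. Eomes went from 5.88 and 6.81 CPM to 503 and 593 CPM (log2 fold change 6.52). Esrrb, which is also on the list of undifferentiated mESC markers, fell by 4.31 on the log2 scale from a mean of 948 CPM. Of 10 differentiated trophoblast genes 4 were higher, Hand1, Gcm1, Peg10 and Dlx3, and 3 lower, Rhox6 and Rhox9 among them, with a median of -0.37. Rhox6 had 40 and 38 counts at day 0 and 0 and 1 at day 6. Synb, high in knockdown cells, was at 15.5 and 10.9 CPM at day 6.

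Genes of the epithelial cytoskeleton and junctions were called in EBs and not in knockdown cells. Of 15 tested, Krt7, Krt8 and Krt18 included, none was called under either hairpin, with medians of -0.20 and -0.29. Some passed the FDR limit there and stayed under 2-fold. Under shGas41-1 these were Epcam (log2 fold change 0.80), Cgn (0.71), Krt8 (-0.85) and Cldn4 (-0.62), and under shGas41-2 Cldn4 (-0.88). In day 6 EBs 11 were called higher, those members included, against 16.6% of all genes, with a median of 2.32. Among these were Cldn7 (log2 fold change 4.08) and Cldn6 (3.64), tight-junction claudins, and Dsp (3.80), a desmosome plaque protein. Krt19, a keratin of the trophectoderm and other simple epithelia, had 0.777 to 1.92 CPM in shCon, 1.76 to 3.67 CPM in shGas41-1 (0.98, FDR = 0.102, edgeR) and 5.39 and 11.4 CPM at day 6 (3.50, FDR = 0.000665, edgeR). Over the 43 keratin symbols in the tables, 16 were tested against shGas41-1 with 2 called higher, 14 against shGas41-2 with 0 called, and 13 in EBs with 5 called higher and 5 lower.

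Of 20 Hippo pathway genes tested, 3 were called higher and 1 lower under shGas41-1, against 7.9% and 2.4% of all genes (median -0.15). Under shGas41-2 2 of 20 were called higher and 0 lower, against 3.96% and 0.869% of all genes (median -0.07). Ctgf and Cyr61, known targets of the YAP and TEAD factors, were higher under both hairpins. Ctgf went from 4.28 to 8.19 CPM to 25.9 to 39.4 CPM with shGas41-1 (log2 fold change 2.46) and 13.5 and 16.0 CPM with shGas41-2 (1.32), and Cyr61 changed by 1.43 and 1.1. Cyr61 was also higher in EB day 0 than in shCon, by 1.04 (FDR = 0.0428, edgeR). In EBs 9 were higher and 1 lower of 20, against 16.6% and 14.7% of all genes, with a median of 0.79. Amot, a scaffold that holds YAP out of the nucleus, rose by 6.91 on the log2 scale, Tead3 by 2.25 and Cyr61 by 2.24, and Tead4 was lower, at 2.80 and 5.90 CPM against 19.1 and 14.7 CPM.

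Relatives of the 6 transcription factors were called in both directions in shGas41-1 cells, 4 of 13 in all against the 7.9% of genes called higher and 2.4% called lower. Of these 13 tested under shGas41-1, 2 were called higher, Gata6 among them, and 2 lower, Cdx1 and Elf4, with a median of 0.05, and of 12 under shGas41-2 none was called in either direction, with a median of 0.03. Gata6 had 0.166 to 0.220 CPM in shCon and 0.340 to 0.920 CPM in shGas41-1 (log2 fold change 1.76), whereas Gata2, the GATA factor that acts beside Gata3 in trophoblast, was at 2.83 to 3.20 CPM and 2.19 to 2.76 CPM (-0.21, FDR = 0.426, edgeR). Cdx1 fell by 1.64 on the log2 scale under shGas41-1, and it was also called lower in EB day 0 than in shCon, by -1.09 (FDR = 0.0445, edgeR). In EBs 4 of 14 were higher and 1 lower, with a median of 0.36. Gata6 rose by 6.93 and Gata4 by 4.40 on the log2 scale, and Tfap2b was seen with 15 and 11 counts at day 6 after 0 and 0 at day 0.

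**Figure D4:**
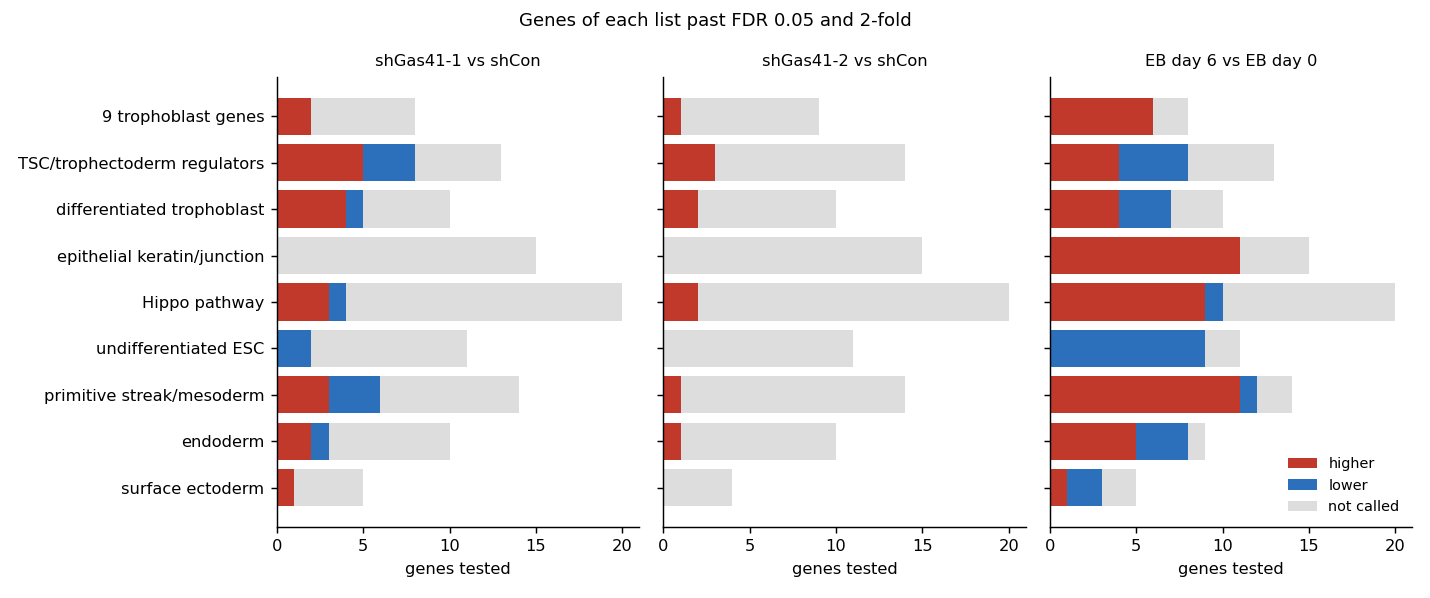
Bars give the genes tested in each list for the 3 main comparisons (horizontal axis, number of genes), with genes called higher in red, lower in blue and not called in grey; a gene can stand in more than one list. The 9 trophoblast genes have 2, 1 and 6 genes in red, and primitive streak and mesoderm markers have 3, 1 and 11.

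Most markers of primitive streak and posterior mesoderm rose with the trophoblast genes in EBs. Markers of endoderm and of surface ectoderm went both ways in EBs. Of all genes tested there, 16.6% were called higher and 14.7% lower. Of 14 markers of primitive streak and posterior mesoderm 11 were called higher and 1 lower at day 6, with a median of 6.36, and their summed level was 1520 and 2160 CPM against 54.8 to 60.5 CPM at day 0. T, the streak factor Brachyury, rose from a mean of 0.342 CPM to 451 CPM, and Mesp1 and Mixl1 rose by 8.97 and 8.93 on the log2 scale. Endoderm markers gave 5 higher and 3 lower of 9, in which Foxa2 rose by 5.94 and Hnf4a fell by 4.94 on the log2 scale. The sum over that list was 76.8 to 171 CPM at day 6 against 57.2 to 65.9 CPM at day 0. Most of the day 0 sum was Lama1, whose mean fell from 51.2 to 10.3 CPM. The means of Gata6 and Gata4 rose from 0.351 to 40.1 CPM and from 1.76 to 34.7 CPM. Surface ectoderm markers gave 1 higher and 2 lower of 5, with sums of 29.8 to 36.4 CPM against 50.8 to 52.8 CPM. Most of this day 0 sum was Grhl3, Grhl2 and Krt17, with means of 20.4, 14.4 and 12.5 CPM. At day 6 those means were 2.93, 24.5 and 0.198 CPM. Trp63 was seen with 13 and 17 counts at day 6 after 0 and 2, and Krt17 had 10 and 17 counts after 867 and 821. In whole cultures fewer cells of a type and less RNA per cell cannot be told apart, and the part of these cell types in the levels of Cdx2, Hand1, Gata3 and the keratins was not tested.

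In knockdown cells fewer of those markers were called. The shares of all genes were 7.9% higher and 2.4% lower under shGas41-1 and 3.96% and 0.869% under shGas41-2. Under shGas41-1 3 of 14 streak and mesoderm markers were higher and 3 lower (median 0.35). The sum over that list was 39.8 to 64.4 CPM against 65.5 to 84.3 CPM in shCon. Its largest part was Bmp4, which was not called (log2 fold change -0.75), with means of 50.5 CPM in shCon and 28.6 CPM in shGas41-1. T was at a mean of 0.468 CPM there, while Evx1, a posterior homeobox gene, went from 0.732 to 1.46 CPM to 3.03 to 12.0 CPM with shGas41-1 (log2 fold change 2.73) and to 3.85 and 9.95 CPM with shGas41-2 (2.85), the 1 call of that list there (median 0.42). Msx1 rose by 1.99. Endoderm markers gave 2 higher, Gata6 and Cubn, and 1 lower, Hnf4a, of 10 under shGas41-1 (median 0.56), and 1 higher of 10, Sox7, under shGas41-2 (median 0.81). For surface ectoderm 1 of 5, Dlx5, at 0.200 to 0.332 CPM against 0.0276 to 0.0338 CPM, and 0 of 4 were called. The share of Gata3 and Cdx2 that came from any such cells was not tested.

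Of 11 markers of undifferentiated mESCs none was higher and 2 were lower under shGas41-1, against 2.4% of all genes called lower, and none was called under shGas41-2. Klf4 fell by 1.13 and Esrrb fell by 1.04 on the log2 scale. Pou5f1, which encodes Oct4, a repressor of Cdx2, had 1200 to 1460 CPM in shCon, 1210 to 1460 CPM in shGas41-1 and 1380 and 1420 CPM in shGas41-2. Its log2 fold changes were 0.05 ± 0.15 and 0.15 ± 0.10 (SE). Sox2 (-0.28 and -0.22) and Nanog (0.09 and 0.23) were not called either. In day 6 EBs 9 of 11 were lower, with a median of -2.33. Klf4 fell by 5.64, Zfp42 fell by 4.87, Sox2 fell by 1.93 and Nanog fell by 1.22 on the log2 scale, and Pou5f1, at 904 and 768 CPM, changed by -0.34 and stayed under 2-fold.

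The day 6 libraries were not alike in these genes. Replicate 3 was above replicate 2 for all 8 members with enough counts, by 3.30 times for Hand1, 2.86 for Gata3, 1.91 for Krt8, 1.53 for Krt7, 1.48 for Cdx2, 1.23 for Krt18, 1.17 for Ascl2 and 1.10 for Tfap2c. Over 17980 genes the median of this ratio was 0.979, with 44.3% of genes higher in replicate 3 and 10% above 1.29 times. Streak and mesoderm markers were higher in replicate 3 for 14 of 14, and undifferentiated markers for 2 of 11. Epithelial keratin and junction genes were so for 6 of 15, with the members Krt7, Krt8 and Krt18 among the 6. This is a comparison of a pair of libraries and has no test.

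The EB calls and fold changes depended on single libraries. Without day 6 replicate 3 the log2 fold changes were 2.77 for Hand1, 1.99 for Gata3 and 1.77 for Krt8, and without day 0 replicate 3 only 2 of the 6 calls, Cdx2 and Krt18, were kept. The fold changes of the other 4 were then 2.64 for Gata3, 3.91 for Hand1, 3.14 for Krt7 and 2.14 for Krt8, at FDR values of 0.13, 0.094, 0.053 and 0.075 (edgeR). In such a fit the lone library of a group is taken to vary like the others.

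Finally, the genes whose levels ran closest to each member over the 12 libraries were taken among 13804 others, by Pearson correlation of log2(CPM + 1). These values are descriptions over libraries that share controls, and the 2 day 6 libraries stand apart from the other 10 for the members that rose there. Cdx2 ran with Alox15 (r = 0.998), a lipoxygenase, and Ghr (0.994), the growth hormone receptor. Gata3, which was high in knockdown cells as well, ran with Stx11 (0.961), a syntaxin of vesicle fusion, and Prkch (0.955), a protein kinase C, at lower values of r. Hand1 ran with Sox17 (0.984), an endoderm and endothelial factor, and Asb4 (0.984), Krt8 with BC023829 (0.984) and Kifc2 (0.984), and Krt18 with Usp25 (0.995) and Prtg (0.995). The neighbours of the members that changed little in EBs were looser, Il17rc (0.902) and Nudt9 (0.890) for Tfap2c and Aldh16a1 (0.936) and Lynx1 (0.934) for Ascl2, and those of Krt7 were Hspb8 (0.931) and Aldoc (0.929).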

How the data were processed

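RNA-seq of J1 mESCs was analysed in 12 libraries; the ChIP-seq samples were not used. The deposited values are raw read counts per gene. Per the methods and labels, the authors made TruSeq v2 libraries, which do not mark strand, aligned reads to mm9 with TopHat2 2.0.10 and counted them with HTSeq. The deposited tables also hold the authors' own fold changes and p-values from edgeR, which were not used. Columns named ESC in the EB table were read as EB day 0, since those samples' labels name that table. Counts were tested group against group with edgeR 4.0.16 (R 4.3.3; TMM, filterByExpr with a minimum count of 10 and total of 15, quasi-likelihood F-test), checked on simulated data. DESeq2 1.42.0, other scalings, filters and thresholds, a replicate block, one fit over 12 libraries and leaving out each library were alternatives. Counting error is small for well expressed genes and larger at low counts. Low counts include Cdx2 (21, 17 and 5) and Gata3 (11, 7 and 6) in shCon and Krt7 (6 and 5) at EB day 0. Lengths and positions are from GENCODE on mm9. The members, lists and tests were chosen with earlier results of these data known. Named were all members, up to 3 called genes per list with the largest change (2 for shGas41-2), a few fixed genes and the 2 genes closest to each member. Gata2, Synb in EBs and the day 6 replicate comparison were added after their values were seen. Some genes of the lists are counted but not reported here by name.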

Additional observations from a re-analysis of the deposited data

How the results depend on the processing

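Of the member fold changes, 254 alternative values kept their direction and side of the thresholds, 12 passed where the main test did not, 4 lost a call and 5 turned in sign. The count of members called under shGas41-1, 2 in the main test, was 4 with the FDR limit alone and 2 to 3 with 1 library left out. Under shGas41-2 it was 1, and 2 with no filter, 2 with DESeq2, 2 in one fit over 12 libraries and 1 to 3 with 1 library left out, Cdx2 being the added gene in the first 3 (log2 fold changes 1.78, 1.79 and 1.79; FDR 0.0357, 0.0442 and 0.0395). In EBs the count was 6, and 2 to 6 with 1 library left out. The turned signs were those of Krt18 under shGas41-1 (-0.04 with library size alone; -0.04 to 0.1 with 1 library left out) and of Tfap2c in EBs (-0.36 to 0.35 with 1 library left out), both small. Ascl2 under shGas41-1 was also called with no filter (FDR 0.0499), DESeq2 (0.0235) and one fit over 12 libraries (0.046). The causes were not tested. Same-numbered libraries did not deviate together throughout. The correlations ran from -0.65 (shGas41-1 against shCon, replicate 3) to 0.52 and 0.46 (shGas41-2 against shCon, replicates 1 and 2). Whether the numbers pair the libraries is not settled by these values. With a replicate block the members called were 2 under shGas41-2 (Cdx2 at 1.35, FDR 0.00787) and 1 in EB day 0 against shCon, where the main test called 0, and Ascl2 was called under shGas41-1 (FDR 0.038). All genes called with the block went from 1882 to 1321 for shGas41-1, from 888 to 1334 for shGas41-2, from 5726 to 5631 in EBs and from 103 to 296 for EB day 0 against shCon. For shGas41-2, EBs and EB day 0 against shCon the block leaves little from which to estimate the spread. A shCon library without a partner of its number adds nothing to the difference there. Depth limits Elf5 in every group and Gata3, Cdx2 and Krt7 in the controls.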
